A study of Mus musculus with 14 samples.

Results

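The 10 genes described here encode MLL, its chromatin anchors menin and LEDGF, the methyltransferase DOT1L, the related elongation factors ENL and AF9, and the AFF family. They are Kmt2a, Men1, Psip1, Dot1l, Mllt1, Mllt3, Aff1, Aff2, Aff3 and Aff4. They were taken by name from a table of 52550 mouse genes, with earlier results of these data known. All 10 passed the filter on low counts in every comparison. Aff2 and Aff3 passed it only through the group where they were high, which was MLL-AF9 cells for Aff2 and HSPCs for Aff3, and puro for Aff3 between the vectors. Each was followed in 14 RNA-seq libraries of mouse bone marrow cells.

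MLL, the product of Kmt2a, is a histone H3 lysine 4 methyltransferase that keeps Hox genes active in blood stem and progenitor cells. Menin (Men1) binds the amino-terminal part of MLL and, together with LEDGF (Psip1), tethers it to chromatin. In acute leukemia, chromosome breaks join that part of MLL to an elongation factor: AF9 (Mllt3), ENL (Mllt1) and AF4 (Aff1) are frequent partners. AF9 and ENL read acylated histones and bind both the histone H3 lysine 79 methyltransferase DOT1L and the AFF scaffold proteins of the super elongation complex, which releases paused RNA polymerase II.

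The study held 4 libraries of WT HSPCs, 4 of Mir139KO HSPCs and 6 of MLL-AF9 cells. HSPCs were bone marrow cells of C57BL/6 mice, aged 8 to 20 weeks, enriched for hematopoietic stem and progenitor cells by lineage depletion and lysed directly. Mir139KO HSPCs came from mice with a germline deletion of the microRNA gene Mir139, and the MLL-AF9 cells did not carry it. MLL-AF9 cells were WT HSPCs cultured overnight with hematopoietic cytokines (GM-CSF, IL-6, SCF and IL-3), transduced with a pMSCV retrovirus carrying the MLL-AF9 fusion cDNA, selected with neomycin (neo, n = 3) or puromycin (puro, n = 3) and replated in semi-solid medium. No library came from cultured HSPCs without MLL-AF9, so that the fusion, culture, selection and replating cannot be told apart. Whether reads from the fusion cDNA were counted to Kmt2a or Mllt3 was not tested.

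The libraries held 35016668 to 45877994 gene counts, and 3 counts corresponded to 0.055 to 0.127 CPM, the counts scaled to a common library size with TMM factors over all libraries. The HSPC libraries split by the share of counts assigned to a single noncoding RNA gene, Gm26917. This share was 16.99 to 21.93% in WT HSPC 1 and 2 and Mir139KO HSPC 2 and 3 (low-share), 32.70 to 35.44% in WT HSPC 3 and 4 and Mir139KO HSPC 1 and 4 (high-share), and 7.55 to 10.41% in MLL-AF9 cells. Mir139 itself was listed at 0 counts in all 14 libraries, WT included, so it could not check the genotype. The 7 stem and progenitor markers were detected in every HSPC library, at a summed 398 to 585 CPM, against 50.2 to 141 CPM in MLL-AF9 cells. HSPC libraries also held erythroid markers at 799 to 1706 CPM and neutrophil markers at 4516 to 22320 CPM, against 1.02 to 2.91 and 2465 to 4181 CPM in MLL-AF9 cells. Megakaryocyte markers were at 147 to 794 CPM and mast, basophil and eosinophil markers at 799 to 1854 CPM, against 10.7 to 41.5 and 5.35 to 24.7 CPM. Monocyte markers overlapped, at 625 to 1028 CPM in HSPC libraries and 185 to 1060 CPM in MLL-AF9 cells. The B cell, T and NK cell and plasma cell markers summed to 31.5 to 85.1, 56.1 to 130 and 104 to 350.3 CPM in HSPC libraries, and to 1.80 to 6.54, 0.300 to 1.61 and 1.74 to 4.42 CPM in MLL-AF9 cells. The part of these other cells in the differences below was not tested, and in bulk RNA fewer cells of a type and less RNA per cell cannot be told apart.

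MLL-AF9 cells were compared with WT HSPCs to ask how the genes of this machinery are expressed in cells that carry the fusion. Of the 10 genes, 5 were higher (Kmt2a, Psip1, Aff1, Aff2 and Aff4), 4 were lower (Men1, Dot1l, Mllt1 and Aff3) and Mllt3 did not pass the threshold (edgeR quasi-likelihood test, adjusted p under 0.05). Over all 17077 genes tested, 62.2% passed, 32.8% as higher and 29.4% as lower, so that a change in 9 of 10 genes has to be read against a transcriptome in which most genes differed. Without overlap between the 6 MLL-AF9 and the 4 WT libraries stood 8 of the 10 genes, all but Kmt2a and Mllt3, against 50.5% of all genes. The median log2 fold change was 0.88 over the 10 genes and 0.14 over all genes tested. Scaled by total counts alone, the median over all genes rose to 0.69 and 68.3% of the calls were higher, against 52.7% with TMM factors. No gene of the 10 changed direction under that scaling, but Dot1l lost its call.

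The differences with Mir139KO HSPCs as the comparator are given beside those with WT HSPCs. Both rest on the same 6 MLL-AF9 libraries and are therefore not independent. Against Mir139KO HSPCs 6 genes were higher and 4 lower, with Mllt3 now called, while 69.3% of 16953 genes passed (37.3% higher and 31.9% lower). All but Kmt2a stood without overlap, as did 58.0% of all genes.

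**Figure D1:**
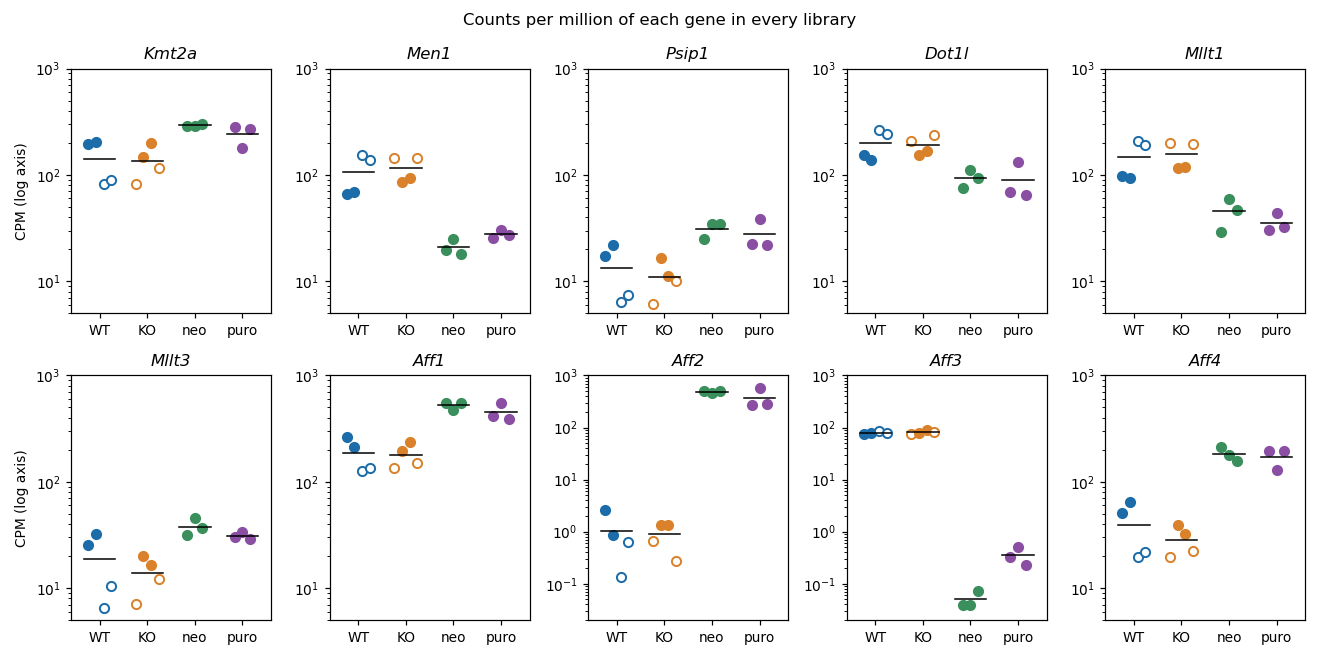
CPM of each of the 10 genes (log axis) in every library of WT HSPCs, Mir139KO HSPCs (KO), MLL-AF9 neo and MLL-AF9 puro cells. Each point is a library, open points are high-share HSPC libraries, and bars are group means. Aff2 and Aff3 exchange places between HSPCs and MLL-AF9 cells, and open and filled HSPC points separate for every gene but Aff3.

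Among the chromatin anchors, Men1 was lower and Psip1 higher in MLL-AF9 cells. Men1 (ENSMUSG00000024947, chr19:6334979-6340891, GRCm38, plus strand), the gene for menin, was at 66.1, 69.7, 155 and 137 CPM in WT HSPC 1 to 4, and at 143, 85.3, 92.9 and 144 CPM in Mir139KO HSPC 1 to 4. In MLL-AF9 cells it ranged from 18.1 to 30.2 CPM with a median of 25.3. Every MLL-AF9 library lay below every HSPC library. Its log2 fold change was -2.17 (SE 0.30, adjusted p = 0.000106) against WT HSPCs, that is 4.50-fold lower, and -2.30 (SE 0.23, adjusted p = 5.95e-06) against Mir139KO HSPCs. With low-share WT libraries alone and a correction for GC content, the Men1 difference was smaller at -1.21 and still called. This combined alternative, used for other genes below too, was added after seeing the data.

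Psip1 (ENSMUSG00000028484, chr4:83455680-83486459, minus strand) encodes LEDGF, a chromatin reader that binds methylated histone H3 lysine 36. It was at 17.1, 21.9, 6.43 and 7.49 CPM in WT HSPC 1 to 4, at 6.13, 16.6, 11.1 and 10.1 CPM in Mir139KO HSPC 1 to 4, and at 21.95 to 38.5 CPM (median 29.6) in MLL-AF9 cells. The lowest MLL-AF9 library, at 21.95 CPM, was almost level with WT HSPC 2 at 21.93 CPM. The log2 fold change was 1.13 (SE 0.37, adjusted p = 0.0185) against WT and 1.39 (SE 0.30, adjusted p = 0.00121) against Mir139KO HSPCs. The call against WT was lost with only low-share WT libraries (0.53, adjusted p = 0.133), after GC correction (0.04, adjusted p = 0.882), and without WT HSPC 3 (0.89, adjusted p = 0.0511) or WT HSPC 4 (0.93, adjusted p = 0.0613). It was lost against Mir139KO HSPCs after GC correction (0.09, adjusted p = 0.713). Of its exon bases 9.5% overlap Snapc3 on the opposite strand, and no strand setting of the counting is given in the sources used here.

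Kmt2a (ENSMUSG00000002028, chr9:44803355-44881296, minus strand), the gene for MLL itself, was higher in MLL-AF9 cells. It was at 194, 203, 81.9 and 88.6 CPM in WT HSPC 1 to 4 and at 81.6, 149, 198 and 116 CPM in Mir139KO HSPC 1 to 4. The neo libraries held 288, 286 and 301 CPM and the puro libraries 281, 181 and 269 CPM. Puro 2 fell within the HSPC range, whereas the other 5 MLL-AF9 libraries lay above it. The log2 fold change was 0.90 (SE 0.32, adjusted p = 0.0267) against WT and 0.95 (SE 0.26, adjusted p = 0.00656) against Mir139KO HSPCs. With only low-share HSPC libraries it was 0.38 (adjusted p = 0.214) and 0.57 (adjusted p = 0.0949), and leaving out WT HSPC 3 or 4 also ended the call against WT, at 0.70 and 0.72 (adjusted p = 0.0777 and 0.0879). With only high-share WT libraries it was 1.53 (adjusted p = 0.000992) and after GC correction 1.25 (adjusted p = 0.00457), so that its size ran from below to above 2-fold.

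Dot1l (ENSMUSG00000061589, chr10:80755206-80795461, plus strand), the enzyme recruited by AF9, was lower in MLL-AF9 cells. Its values were 155, 140, 262 and 241 CPM in WT HSPC 1 to 4, and 209, 153, 169 and 239 CPM in Mir139KO HSPC 1 to 4. In MLL-AF9 cells they ranged from 65.4 to 132 CPM with a median of 84.3. No MLL-AF9 library reached the lowest HSPC library, which was WT HSPC 2. Its log2 fold change was -1.16 (SE 0.28, adjusted p = 0.00378) against WT and -1.12 (SE 0.24, adjusted p = 0.00136) against Mir139KO HSPCs. After GC correction it was -0.30 (adjusted p = 0.363) and -0.19 (adjusted p = 0.564), and scaled by total counts alone -0.49 (adjusted p = 0.0774) and -0.38 (adjusted p = 0.134).

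Of the paralogs Mllt1 and Mllt3, only Mllt1 was called against WT HSPCs. Mllt1 (ENSMUSG00000024212, chr17:56892611-56935415, minus strand) encodes ENL and was at 98.0, 93.9, 207 and 190.5 CPM in WT HSPC 1 to 4 and at 199, 115, 119 and 197 CPM in Mir139KO HSPC 1 to 4. MLL-AF9 cells held 29.1 to 59.6 CPM (median 38.2), below every HSPC library. In log2 terms Mllt1 was lower, at -1.90 (SE 0.31, adjusted p = 0.000349) against WT and -2.0 (SE 0.27, adjusted p = 4.27e-05) against Mir139KO HSPCs. With low-share libraries and GC correction together the call was lost, at -0.94 (adjusted p = 0.103) and -1.03 (adjusted p = 0.0687).

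Mllt3 (ENSMUSG00000028496, chr4:87769925-88033364, minus strand) encodes AF9, the partner in the fusion studied. It was at 25.4, 32.5, 6.53 and 10.4 CPM in WT HSPC 1 to 4, at 7.02, 20.2, 16.6 and 12.2 CPM in Mir139KO HSPC 1 to 4, and at 29.2 to 45.3 CPM (median 32.8) in MLL-AF9 cells. The MLL-AF9 range contained WT HSPC 2 and lay above all other HSPC libraries. Against WT HSPCs the log2 fold change of 0.86 (SE 0.40, adjusted p = 0.0759) did not pass, and against Mir139KO HSPCs it was 1.27 (SE 0.29, adjusted p = 0.00176). The sign turned after GC correction, to -0.38 (adjusted p = 0.0944) and -0.25 (adjusted p = 0.255). Per kilobase of exon, the ratio of the Mllt1 level to the Mllt3 level was 8.86 to 97.3 in the 8 HSPC libraries and 2.81 to 4.03 in the 6 MLL-AF9 libraries. Within HSPCs it was 8.86 to 21.9 in low-share and 49.7 to 97.3 in high-share libraries.

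The AFF family showed the widest changes. Aff2 (ENSMUSG00000031189, chrX:69360294-69868037, plus strand), known for the FRAXE fragile site in its human counterpart, rose from close to the detection floor to among the highest of the 10 genes. Its counts were 123, 37, 4 and 17 in WT HSPC 1 to 4 and 16, 47, 56 and 7 in Mir139KO HSPC 1 to 4. The neo libraries held 25425, 23585 and 27781 counts, and the puro libraries 13363, 28773 and 15245. In CPM the WT libraries were at 2.58, 0.861, 0.132 and 0.6245, and MLL-AF9 libraries at 267 to 575 (median 480.0). No HSPC library came near the MLL-AF9 range. On the log2 scale Aff2 was higher by 8.64 (SE 0.79, adjusted p = 6.79e-06), that is 398-fold, against WT and 8.82 (SE 0.55, adjusted p = 2.34e-07) against Mir139KO HSPCs. Over the 24 alternative fits of the comparison with WT it stayed between 7.90 and 10.04, and it was called in each. Since Aff2 passed the filter only through MLL-AF9 cells and these fits share libraries, the calls add no support beyond the counts given. The size of the fold is set by a small number of HSPC counts.

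Aff3 (ENSMUSG00000037138, chr1:38177326-38664955, minus strand), a family member best known from lymphoid cells, was lower in MLL-AF9 cells. The B cell, T and NK cell and plasma cell markers given above were lower there too, and their part in the Aff3 difference was not tested. It was at 74.3, 79.2, 84.0 and 78.8 CPM in WT HSPC 1 to 4 and at 74.4, 78.8, 89.8 and 80.7 CPM in Mir139KO HSPC 1 to 4. MLL-AF9 neo 1 to 3 held 2, 2 and 4 counts and MLL-AF9 puro 1 to 3 held 16, 25 and 12 counts, against 1760 to 3674 counts in HSPCs. The 8 HSPC libraries were thus nearly level and the MLL-AF9 libraries near the floor. This gave log2 fold changes of -8.64 (SE 0.65, adjusted p = 1.94e-06), that is 400.2-fold lower, against WT and -8.69 (SE 0.61, adjusted p = 5.05e-07) against Mir139KO HSPCs. Aff3 was called in all 24 alternative fits of each comparison. Since it passed the filter only through HSPCs and these fits share libraries, the calls add no support beyond the counts given.

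Aff1 and Aff4, the scaffolds of the super elongation complex, were both higher in MLL-AF9 cells. Aff4 (ENSMUSG00000049470, chr11:53350833-53421830, plus strand) was at 51.1, 63.9, 19.8 and 21.7 CPM in WT HSPC 1 to 4, at 19.7, 39.6, 32.6 and 22.2 CPM in Mir139KO HSPC 1 to 4, and at 128 to 211 CPM (median 185) in MLL-AF9 cells. The lowest MLL-AF9 library, puro 2, was still above the highest HSPC library. Its log2 fold change was 2.17 (SE 0.38, adjusted p = 0.000464) against WT and 2.60 (SE 0.27, adjusted p = 6.91e-06) against Mir139KO HSPCs.

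Aff1 (ENSMUSG00000029313, chr5:103692374-103855322, plus strand) encodes AF4 and was at 265, 211, 126 and 136 CPM in WT HSPC 1 to 4 and at 134, 196.5, 238 and 151 CPM in Mir139KO HSPC 1 to 4. MLL-AF9 cells held 393 to 551.5 CPM (median 513), above every HSPC library. Its log2 fold change was 1.38 (SE 0.28, adjusted p = 0.00122) against WT and 1.41 (SE 0.23, adjusted p = 0.000181) against Mir139KO HSPCs. Both Aff1 and Aff4 were called in all 24 alternative fits against WT, Aff1 at 0.98 to 1.87 and Aff4 at 1.29 to 2.97.

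**Figure D2:**
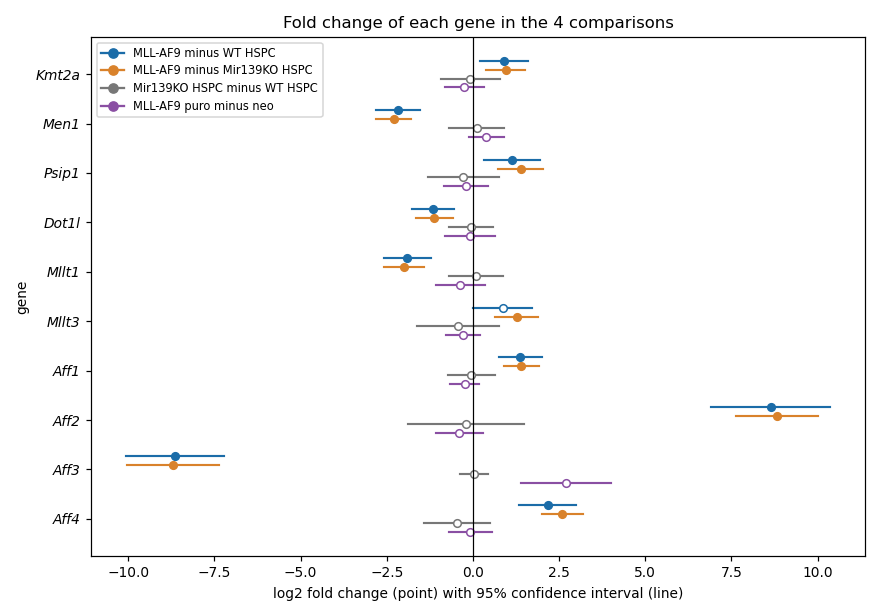
Log2 fold change of each of the 10 genes (points) with its 95% confidence interval (lines) in the 4 comparisons. Filled points passed an adjusted p of 0.05. Aff2 at 8.64 and Aff3 at -8.64 stand far from the other 8 genes in MLL-AF9 cells, and no interval of Mir139KO minus WT HSPCs excludes 0.

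Expressed per length, as CPM per kilobase of exon, the AFF family as a whole summed to 26.9 to 43.4 in the 8 HSPC libraries and to 94.9 to 147 in the 6 MLL-AF9 libraries. In HSPCs Aff1 made up 48.6 to 64.6% of this sum, Aff3 25.8 to 45.96%, Aff4 5.36 to 12.1% and Aff2 0.0661 to 0.819%. In MLL-AF9 cells Aff2 made up 38.7 to 53.9%, Aff1 39.5 to 45.96%, Aff4 6.51 to 15.3% and Aff3 0.00412 to 0.0512%. Aff1 was thus the leading member in all HSPC libraries by share, and Aff2 exceeded it in 4 of 6 MLL-AF9 libraries.

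**Figure D3:**
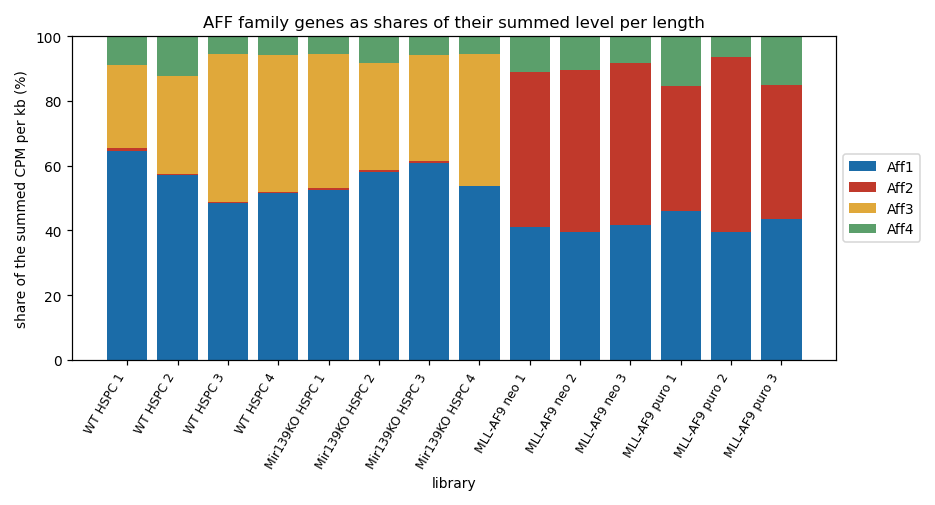
Aff1, Aff2, Aff3 and Aff4 as percentages of their summed CPM per kilobase in each library. Aff3 takes 25.8 to 45.96% of the HSPC bars and is not visible in MLL-AF9 bars, whereas Aff2 takes 38.7 to 53.9% of the MLL-AF9 bars.

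Among all 10 genes, the order of the levels per length in WT HSPCs was Mllt1 (37.6 ± 15.3 CPM per kilobase, SD, n = 4), Men1 (27.9 ± 11.99), Dot1l (22.9 ± 7.04), Aff1 (19.5 ± 6.95), Aff3 (11.9 ± 0.591), Kmt2a (8.51 ± 3.93), Aff4 (2.91 ± 1.63), Psip1 (2.61 ± 1.48), Mllt3 (1.56 ± 1.02) and Aff2 (0.144 ± 0.147). Neighbours overlapped between libraries throughout this order except between Aff1 and Aff3, Kmt2a and Aff4, and Mllt3 and Aff2. Mir139KO HSPCs kept the order but for Psip1 (2.16 ± 0.846) and Aff4 (2.12 ± 0.691), which were level. In MLL-AF9 cells the order was Aff2 (59.6 ± 17.3, SD, n = 6), Aff1 (51.7 ± 7.64), Kmt2a (16.1 ± 2.63), Aff4 (13.2 ± 2.24), Dot1l (10.4 ± 3.06), Mllt1 (10.3 ± 3.06), Men1 (6.33 ± 1.20), Psip1 (5.79 ± 1.41), Mllt3 (2.87 ± 0.495) and Aff3 (0.0300 ± 0.0279). Here only Aff1 and Kmt2a, Psip1 and Mllt3, and Mllt3 and Aff3 were neighbours without overlap. Lengths were exon unions, so that a shorter transcript in use would raise the true level of a gene.

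The levels of these genes also moved with the Gm26917 share among HSPC libraries of the same genotype. Of the 10 genes, 9 did not overlap between the 4 high-share and the 4 low-share HSPC libraries, against 65.0% of 15056 genes. In WT HSPCs the mean log2 CPM of high-share libraries minus low-share libraries was 1.11 for Men1, 1.05 for Mllt1 and 0.78 for Dot1l. It was -2.15 for Aff2, -1.79 for Mllt3, -1.47 for Psip1, -1.46 for Aff4, -1.22 for Kmt2a and -0.85 for Aff1. Mir139KO HSPCs had the same sign for each of these 9 genes, at 0.48 to 0.76 and -0.60 to -1.53. Aff3 was level, at 0.08 and -0.12. The longest transcripts of the 3 genes above in high-share libraries have 56.96 to 59.54% GC, and those of the 6 genes below have 41.41 to 50.69%. Over all genes the difference between high-share and low-share libraries had a Spearman correlation of 0.74 with this GC content, across genes, which are not independent replicates and share these libraries. The log2 fold change of MLL-AF9 minus WT HSPCs had one of -0.39.

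**Figure D4:**
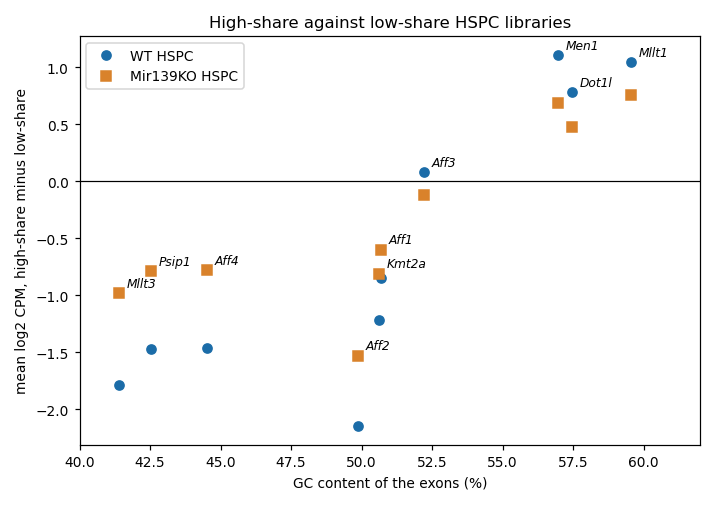
Mean log2 CPM of high-share minus low-share HSPC libraries (vertical axis) against the GC content of the exons of the longest transcript (horizontal axis, %) for the 10 genes, in WT (circles) and Mir139KO HSPCs (squares). Men1, Dot1l and Mllt1 lie above 0 and the genes with the lowest GC content below it.

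The comparison with WT HSPCs was refitted by share class and with GC correction. With high-share WT libraries alone all 10 genes were called, with low-share WT libraries alone 7, and after GC correction 7. With both measures together, a fit added after seeing the data, 6 were called. Over all genes, 11452 of 18244, 7665 of 18331, 9933 of 17077 and 6270 of 18331 were called, in the same order. Each share class held only 2 WT libraries, and the part of the smaller group in the lost calls was not tested. The 6 genes called with both measures were Kmt2a, Men1, Aff1, Aff2, Aff3 and Aff4, with the directions given above. Psip1, Dot1l and Mllt1 were then at -0.05, -0.39 and -0.94, and Mllt3 at -0.55 (adjusted p = 0.0562).

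**Figure D5:**
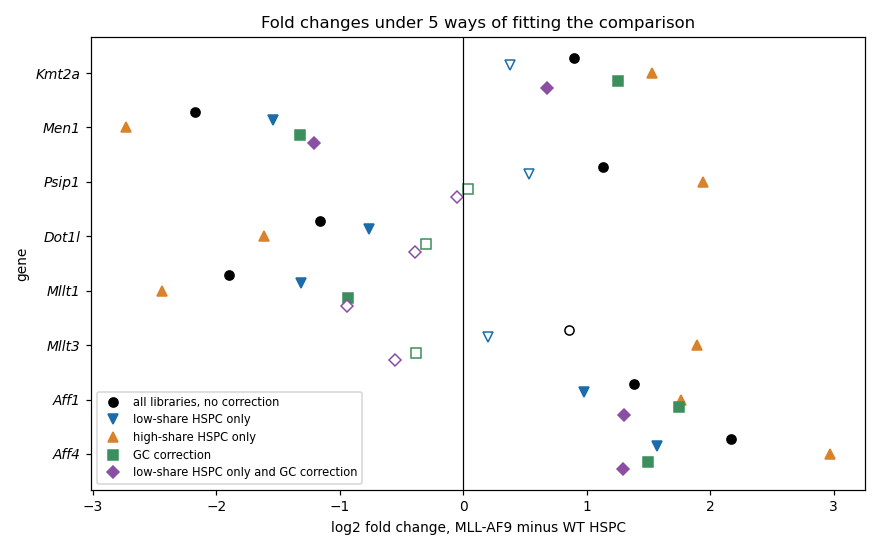
Log2 fold change of MLL-AF9 minus WT HSPCs (horizontal axis) for the 8 genes other than Aff2 and Aff3 under 5 ways of fitting the comparison. Filled points passed an adjusted p of 0.05. Men1, Aff1 and Aff4 are filled under each, and Mllt3 runs from -0.55 to 1.89.

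Mir139KO HSPCs were compared with WT HSPCs to ask whether loss of Mir139 alters these genes before transformation. None of the 10 genes was called by the edgeR quasi-likelihood test, none had an unadjusted p under 0.05 and none stood without overlap. Over 15056 genes 0% were called (0 genes, also 0 by DESeq2, with 86 at an unadjusted p under 0.05), and 0.485% stood without overlap. The log2 fold changes ranged from -0.46 for Aff4 (95% interval -1.42 to 0.50) to 0.11 for Men1 (-0.68 to 0.90), all with an adjusted p of 0.9999. The narrowest interval was that of Aff3, at 0.02 (-0.38 to 0.43), and the widest that of Aff2, at -0.20 (-1.88 to 1.48). Both groups held 2 low-share and 2 high-share libraries, and with this class as a covariate still 0 of the 10 genes were called.

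MLL-AF9 cells with the puro and the neo vector were compared to see whether the genes depend on the vector. None of the 10 genes was called, against 0.873% of 16503 genes. Kmt2a, Men1 and Aff3 stood without overlap between 3 and 3 libraries, as did 19.7% of all genes. Aff3 was at 0.320, 0.4997 and 0.228 CPM in puro 1 to 3 and at 0.0388, 0.0396 and 0.0733 CPM in neo 1 to 3, a difference of 2.70 on the log2 scale (SE 0.55, adjusted p = 0.0849). Since it passed the filter only through puro, this test is no support for a difference, and both groups lay over 100-fold below the HSPC level. Kmt2a was at -0.25 (adjusted p = 0.695), with its lowest value in puro 2, and Men1 at 0.39 (adjusted p = 0.502). Aff2 was at -0.40 (adjusted p = 0.609), but without puro 2 it was -0.78 (adjusted p = 0.0458), since puro 2 held 575 CPM and puro 1 and 3 held 267 and 289 CPM.

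The wider machinery held genes called in both directions, at shares to be read against the 32.8% of all genes that were higher and the 29.4% that were lower. Of 16 tested MLL and COMPASS subunits, 5 were higher and 7 lower in MLL-AF9 cells than in WT HSPCs, with a median log2 fold change of -0.67. The list held 18 genes, but Setd1b and Pagr1a were at 0 CPM in every group, for a reason that was not tested. Kdm6a, a histone H3 lysine 27 demethylase of the MLL3 and MLL4 complexes, rose from 22.4 ± 11.5 to 140 ± 78.8 CPM (log2 fold change 2.62, SE 0.45, adjusted p = 0.000467). Cxxc1, the CpG-binding subunit of the SET1 complexes, fell from 122 ± 49.8 to 29.0 ± 4.24 CPM (-2.09, SE 0.28, adjusted p = 9.43e-05). Tasp1, the protease that cleaves MLL, rose from 16.1 ± 4.45 to 63.8 ± 22.4 CPM (1.97, SE 0.32, adjusted p = 0.000329). With low-share WT libraries and GC correction together, 5 subunits were higher and 3 lower, beside 6270 of 18331 genes called in either direction. Kdm6a, Cxxc1 and Tasp1 were still called.

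Of 13 tested elongation partners 4 were higher and 3 lower, with a median of 0.48, no more than the 32.8% and 29.4% of all genes. Among the 15 listed, Skp1a was at 0 CPM in every group and Ell3 did not pass the filter. With low-share WT libraries and GC correction together 3 of the tested partners were higher and 1 lower, beside 6270 of 18331 genes called in either direction. Mllt10, which encodes the DOT1L-binding protein AF10, rose from 44.1 ± 17.5 to 252 ± 28.6 CPM (log2 fold change 2.5, SE 0.30, adjusted p = 4.44e-05), and it was called with low-share WT libraries and GC correction as well. Ccnt2, a cyclin of the elongation kinase P-TEFb, rose from 24.6 ± 12.6 to 124 ± 25.9 CPM (2.32, SE 0.36, adjusted p = 0.000218). Mllt6, which encodes AF17, fell from 67.7 ± 22.7 to 13.03 ± 11.6 CPM (-2.41, SE 0.72, adjusted p = 0.0117), but lost its call with low-share WT libraries (adjusted p = 0.119) and after GC correction (adjusted p = 0.0590). It also differed between the vectors, at 2.495 ± 0.977 CPM in neo and 23.6 ± 0.547 CPM in puro cells (3.24, SE 0.37, adjusted p = 0.0271), so that the mean of the 6 libraries describes neither. Of the 6 PAF1 complex genes, Cdc73 was higher (17.4 ± 12.6 to 141 ± 41.3 CPM, log2 fold change 3.00, SE 0.51, adjusted p = 0.000399) and Paf1 lower (53.9 ± 8.16 to 26.5 ± 3.85 CPM, -1.05, SE 0.22, adjusted p = 0.00134). Both lost their call with low-share WT libraries and GC correction together (adjusted p = 0.0651 and 0.127).

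Of 7 partners and relatives of menin and LEDGF, 2 were higher and 3 lower, with a median of -0.12, beside 32.8% and 29.4% of all genes. With low-share WT libraries and GC correction together 2 were higher and 0 lower, beside 6270 of 18331 genes called in either direction. The LEDGF relative Hdgfl3 rose from 0.866 ± 0.598 to 12.8 ± 3.33 CPM (log2 fold change 3.86, SE 0.50, adjusted p = 6.74e-05), and Hdgf fell from 748.5 ± 239 to 158 ± 81.9 CPM (-2.28, SE 0.40, adjusted p = 0.000518), a call lost with low-share WT libraries and GC correction together (-1.43, adjusted p = 0.0740). Iws1, a transcription elongation factor bound by LEDGF, was at 27.7 ± 19.2 and 85.1 ± 33.9 CPM (1.59, SE 0.48, adjusted p = 0.0123) and lost its call with low-share WT libraries (adjusted p = 0.0900).

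Genes known as targets of MLL fusions moved in a single direction where they moved. Of 13 tested, 11 were higher and 0 lower, against 32.8% and 29.4% of all genes, with a median log2 fold change of 3.36 beside 0.14 over all genes. With low-share WT libraries alone 8 were higher, beside 7665 of 18331 genes called in either direction. This list was drawn up with earlier results of these data known. Hoxa10, a homeobox transcription factor, rose from 0.773 ± 0.239 to 82.7 ± 29.1 CPM (log2 fold change 6.72, SE 0.44, adjusted p = 6.29e-07), and it was called with low-share WT libraries and GC correction as well. Eya1, a transcriptional coactivator and phosphatase, was at 2.003 ± 0.586 CPM in WT HSPCs and 155 ± 181 CPM in MLL-AF9 cells (6.24, SE 1.73, adjusted p = 0.00766), and it was not called with low-share WT libraries (adjusted p = 0.111). The neo cells, at 2.60 ± 1.92 CPM, were near the WT level and the puro cells were at 307 ± 109.7 CPM (puro minus neo 6.86, SE 0.91, adjusted p = 0.0310). In Mir139KO HSPCs no gene of these lists was called.

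The genes whose profile over the 14 libraries was nearest to that of Aff2 were Igf2bp3, Snx24 and Lipg, with root mean square differences of 0.86, 0.88 and 1.01 in centred log2 CPM. Their mean levels were 1.64, 1.22 and 0.801 CPM in WT HSPCs and 242, 249 and 243 CPM in MLL-AF9 cells, against 1.05 and 433 CPM for Aff2. Nearest to Aff3 were Tal1, a transcription factor of blood stem and erythroid cells (0.62), Gimap3, a GTPase of lymphocytes (0.72), and the immunoglobulin gene segment Ighv4-1 (0.74). Tal1 had a mean of 175 CPM in WT HSPCs and 0.213 CPM in MLL-AF9 cells, and Gimap3 and Ighv4-1 had 23.2 and 26.9 CPM in WT HSPCs and 0 counts in MLL-AF9 cells. Since most of this likeness comes from the step between HSPCs and MLL-AF9 cells, it describes that step.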

How the data were processed

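Total RNA of 14 libraries was depleted of ribosomal RNA (KAPA HyperPrep with RiboErase) and sequenced on a NovaSeq. The deposited values are raw counts of reads per gene; per the submitters' processing notes, the authors used STAR 2.5.3e, GRCm38 and featureCounts 1.6.0. Strand and overlap settings are not given in the sources used here. A second deposited count table holds the same 14 columns and 10 columns of another series and was not used.

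Here genes with at least 10 counts in as many libraries as the smaller group were kept. Each comparison was fitted on its own libraries with edgeR 4.0.16 in R 4.3.3 (TMM factors, robust quasi-likelihood F test), with Benjamini-Hochberg adjustment over all genes kept and a threshold of 0.05. Standard errors were the log2 fold change divided by the root of F. CPM were scaled with TMM factors over all libraries, and log2 CPM used a prior count of 2. Exon lengths, overlaps and GC content came from GENCODE M21 (GRCm38), with GC content taken from the longest transcript of each gene. GC correction subtracted a spline (5 degrees of freedom) of each library's deviations on GC content. HSPC libraries were split at a Gm26917 share of 25%. Intervals are 95% confidence intervals of the log2 fold change, with an error that rests on the spread between libraries. The fits were tested on simulated counts with the same dispersion for every gene and without share classes or a GC trend. That test therefore does not cover these features of the data. Alternatives used DESeq2 1.42.0, limma 3.58.1 (voom), other scaling, no filter, all libraries in 1 fit, replicate blocks, share classes, single vectors and each library left out.

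Named were all 10 genes, up to 3 called genes with the largest change of each partner list, and the 3 nearest profiles of the gene with the largest rise and fall; 1 gene picked by this rule is not reported here. The genes and lists were chosen with earlier results of these data known. The labels do not say whether replicates came from separate mice or transductions. The p-values therefore rest on the spread between these libraries, which may be technical. The most similar pair, MLL-AF9 puro 1 and 3 (r = 0.9948 of log2 CPM), still differed by more than sampling noise (mean chi-square per gene 9.00) and was counted as 2.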

Additional observations from a re-analysis of the deposited data

Results flagged for a closer look

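Kmt2a stood at 181 CPM in MLL-AF9 puro 2, whereas the other 5 MLL-AF9 libraries held 269 to 301 CPM. Its gap to the nearest library was 0.728 of the range of the 6 libraries, above the 95% critical value of Dixon's test. Among 30 combinations of gene and group examined this was the only such case, and chance gives about 1 in 20.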

How the results depend on the processing

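The count of genes called against WT HSPCs, 9, stayed between 6 and 10 under all 24 alternatives (7 to 10 with a library left out, and 7 without WT HSPC 3 or without WT HSPC 4). Where it was 6, 6270 of 18331 genes were called over all genes, against 10630 of 17077 in the main fit. Against Mir139KO HSPCs the count of 10 fell to 6 with low-share libraries and GC correction together, an alternative added after seeing the data in both comparisons. It was 7 to 10 otherwise (10 with each library left out in turn). Over all genes 11741 were called in the main fit and 10577 after GC correction. The number with both measures together is not given here, so the fall to 6 cannot be read as particular to these genes. Between Mir139KO and WT HSPCs the count was 0 throughout, also with the share class as a covariate, which was likewise added after seeing the data. Between vectors the count of 0 became 1 with DESeq2, 1 in the fit of all 14 libraries and 0 to 1 with a library left out (Aff3, which passed the filter only through puro, in the former 2 and Aff2 without puro 2). The number of genes called in all between vectors varied from 0 without neo 2 or neo 3 to 990 without puro 2, and was 1326 with DESeq2 and 692 in the fit of all libraries, against 144.

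Men1, Aff1, Aff2, Aff3 and Aff4 were called in the same direction under every alternative of both comparisons with MLL-AF9 cells. For Aff2 and Aff3, which passed the filter only through the group where they were high, these calls add no support. Mllt3 turned to -0.38 after GC correction, -0.29 with the replicate block and GC correction and -0.55 with low-share libraries and GC correction against WT, and to -0.25, -0.14 and -0.32 against Mir139KO HSPCs. Psip1 turned to -0.05 against WT with low-share libraries and GC correction. The cause was not tested. In the puro vector alone Kmt2a (0.79, adjusted p = 0.133) and Psip1 (1.06, adjusted p = 0.0900) lost their call against WT. Same-numbered libraries did not deviate together throughout (r from -0.579 to 0.642 between Mir139KO and WT, and -0.315 to 0.447 between vectors). Between genotypes r was 0.642 and 0.432 for numbers 2 and 4, whose libraries share a share class. It was -0.561 and -0.579 for numbers 1 and 3, whose classes differ. The check therefore cannot tell whether the numbers pair the libraries. A replicate block gave 10 genes against WT, beside 9300 of 17077 genes over all, and Mllt3 then passed (1.18, adjusted p = 0.0392). It gave 10 against Mir139KO, 0 between genotypes and 0 between vectors. In the MLL-AF9 comparisons the block used running title numbers. Puro 1 was set beside HSPC number 4. Puro 2 and 3 had no HSPC library of their number and so added nothing to the contrast. Same-numbered libraries had r from -0.083 to 0.137 with WT and 0.005 to 0.218 with Mir139KO. The Mllt3 call thus rests on numbers not known to pair the libraries.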
